A study of Mus musculus with 12 samples.

Results

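The nuclear genes of oxidative phosphorylation were followed through a cartilage-to-bone differentiation culture. They were taken by symbol from the deposited table: NADH dehydrogenase (Nduf, then a, b, c, s or v and a digit), ubiquinol-cytochrome c reductase (beginning with Uqcr), cytochrome c oxidase (Cox4 to Cox8, then at most a letter from a to c and a number), succinate dehydrogenase (Sdha to Sdhd) and ATP synthase (beginning with Atp5). Symbols such as Cox4i1, Cox4i2, Cox7a2l and Ndufab1 do not match this pattern. Of 93 matching symbols among 28244 genes, 78 were chosen by a mean log2 value of at least 5 over the 12 libraries. Complex I contributed 38 genes, complex II 4, complex III 8, complex IV 11 and complex V 17. Just inside this limit were Cox6b2 with a mean of 6.02 and Cox6a2 with 6.77, and just outside it were Cox7a1 with 4.63, Atp5l2-ps with 4.60 and Cox8b with 3.52. The level itself was therefore used for the choice and is given as a description only. Of the 15 symbols under the limit, 11 are annotated as processed pseudogenes, and the other 4 (Cox7a1, Cox7b2, Cox8b and Cox8c) code for proteins.

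The libraries came from murine mesenchymal progenitors of C57/BL6 pups aged 5 or 6 days, isolated from the heads and condyles of femurs and tibiae, without any genetic change. Cells were spun into pellets and kept in chondrogenic medium for 7 days, and then in osteogenic medium. Poly-adenylated RNA was sequenced in 3 libraries at each of D7 (end of the chondrogenic phase), D8, D10 and D28, with 0, 1, 3 and 21 days of osteogenic culture behind them. The labels do not state whether the libraries of a time point came from separate isolations, and p-values measure only the spread between these libraries. In such a culture, fewer cells of a type and less RNA per cell cannot be told apart.

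Oxidative phosphorylation (OXPHOS) makes most of the ATP of aerobic cells. Complexes I and II pass electrons from NADH and succinate to ubiquinone, complex III hands them to cytochrome c and complex IV to oxygen, while complexes I, III and IV pump protons that drive ATP synthase, complex V. Most subunits are encoded in the nucleus and a small set in the mitochondrial DNA, and growth plate cartilage, being without vessels, is known for its reliance on glycolysis.

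Values are the deposited log2 levels, on which a difference of 1 is a 2-fold change. A gene was called when its limma adjusted p (Benjamini-Hochberg over 17674 genes) was under 0.05, and all 78 genes passed the filter on low values. The sorted values were nearly equal in all libraries, with a shared maximum of 20.92, so a level is a position within its library. All 8 chondrocyte markers were detected, with a summed log2 level of 21.33 to 21.36 at D7, 20.26 to 20.30 at D10 and 21.24 to 21.28 at D28. Most of that sum is Col2a1, which had the shared maximum in every D7, D8 and D28 library. Of the 8 markers 5 fell at D10 and 4 rose from D10 to D28, against 19.4% and 22.6% of all genes. Their part in the OXPHOS results was not tested. The first D10 library stood apart. Its relative depth was 0.730, against 0.789 to 1.31 in the others, and 75 of the 78 genes were lower in it than the mean of the other D10 libraries, with a median difference of -0.52. In that library, genes with a mean of at least 9 and short exons (at most 3135 bases) were lower by a median of 0.184 and those of at least 7699 bases higher by 0.0943. Of 77 OXPHOS genes with an annotated length, 61 fell in the short class. The third D8 library differed in the same direction by less, with 73 of the 78 genes lower than in the other D8 libraries (median -0.22), short genes lower by 0.0973 and long genes higher by 0.073. The part of this length shift in the results was not tested, and the counts that the first D10 library moved most are given below with and without it.

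The upstream sequences of 4 called genes are shown first, because nuclear respiratory genes are known targets of the activators NRF1 and GABP. RefSeq promoters (GRCm38.p6) were found for 65 of the 78 genes and searched over 250 bases upstream of the start, on both strands. The NRF1 letters GCGCATGC were present in 8 of 65 (12.3%), against 2.56% of 27025 genes. The GABPA letters CCGGAAG were present in 12 (18.5%), against 7.83%. The YY1 letters AAGATGGC occurred in 1 gene (1.54%, against 1.83%) and the ERR letters TCAAGGTCA in 1 gene (1.54%, against 0.422%). The NRF1 letters and their reverse complement overlap, so that 1 palindrome holds both. Capitals mark matches, and bases that lie within the GENCODE gene are left out. Ndufa11 lies on the plus strand (chr17:56717512-56717761), Uqcr11 on the minus strand (chr10:80406831-80407071), Cox6a1 on the minus strand (chr5:115348982-115349208) and Ndufv3 on the plus strand (chr17:31519865-31520114). As printed, Ndufa11 and Cox6a1 hold the NRF1 letters and Uqcr11 the GABPA letters. Cox6a1 also counts among the 12 genes with the GABPA letters, but that match is not in the bases shown. Ndufv3 holds none of the 4 motifs in this window.
Ndufa11: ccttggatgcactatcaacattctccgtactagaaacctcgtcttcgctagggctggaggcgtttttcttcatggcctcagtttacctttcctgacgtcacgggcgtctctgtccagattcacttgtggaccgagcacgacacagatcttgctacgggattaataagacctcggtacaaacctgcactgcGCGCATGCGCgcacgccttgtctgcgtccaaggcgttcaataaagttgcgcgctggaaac
Uqcr11: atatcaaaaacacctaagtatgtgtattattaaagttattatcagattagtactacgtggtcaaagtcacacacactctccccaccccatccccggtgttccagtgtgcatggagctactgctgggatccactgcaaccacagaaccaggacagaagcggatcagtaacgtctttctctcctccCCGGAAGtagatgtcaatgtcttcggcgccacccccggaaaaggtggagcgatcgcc
Cox6a1: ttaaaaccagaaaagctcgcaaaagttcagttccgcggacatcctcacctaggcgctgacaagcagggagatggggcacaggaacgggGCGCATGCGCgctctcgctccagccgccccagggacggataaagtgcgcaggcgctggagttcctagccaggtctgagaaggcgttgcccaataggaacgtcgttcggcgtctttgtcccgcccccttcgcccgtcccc
Ndufv3: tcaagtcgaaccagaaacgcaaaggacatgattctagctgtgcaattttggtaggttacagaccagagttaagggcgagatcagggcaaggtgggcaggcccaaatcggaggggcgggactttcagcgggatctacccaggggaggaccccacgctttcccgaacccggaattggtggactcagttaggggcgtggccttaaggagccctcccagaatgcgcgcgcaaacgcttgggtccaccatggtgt

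The mean log2 value over the OXPHOS genes was lowest at D10, and the other time points lay close together. The mean log2 value of the 78 genes was 10.77, 10.91 and 10.74 in the D7 libraries, 10.90, 10.94 and 10.69 at D8, 10.22, 10.74 and 10.63 at D10, and 10.90, 10.87 and 10.85 at D28. The first D10 library was the lowest of all 12, and the other D10 libraries reached the lowest D7 value or lay below it. Summed on the linear scale, the genes made up 7.44 ± 0.61 per 1000 of the library total at D7 (SD, n = 3), 7.60 ± 0.57 at D8, 6.34 ± 0.99 at D10 and 8.17 ± 0.07 at D28. Without Ndufa4l2, which alone accounted for part of that sum, the levels were 7.10 ± 0.65, 7.29 ± 0.64, 6.22 ± 0.96 and 7.51 ± 0.02 per 1000. Of the 78 genes, 52 had their lowest mean at D10, and 31 had their highest mean at D28. By complex, the mean was highest at D28 for complexes I and II, at D7 for complex III (11.39, against 11.32 at D28) and at D8 for complexes IV (10.60, against 10.35 at D28) and V (11.60, against 11.58).

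**Figure D1:**
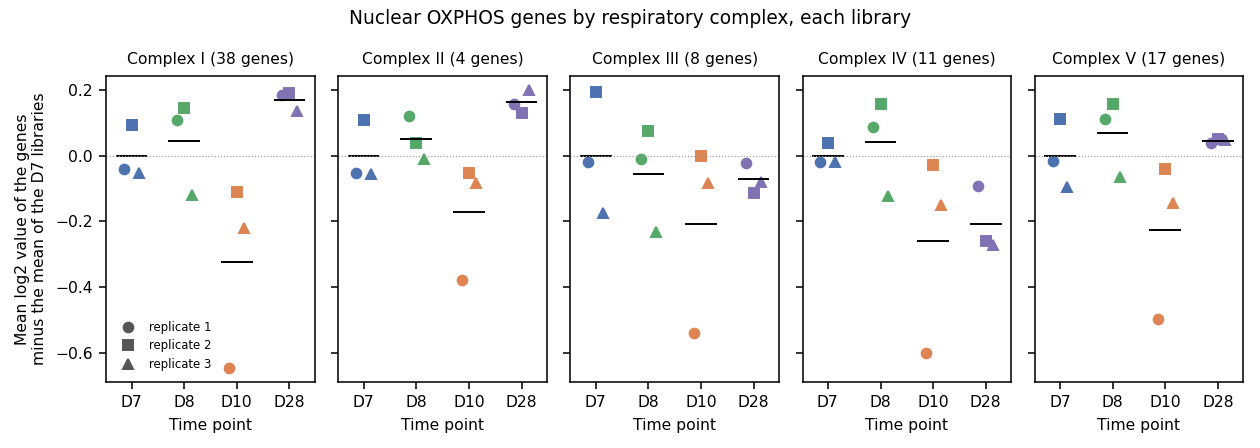
Mean log2 value of the nuclear OXPHOS genes of each respiratory complex, minus the mean of the D7 libraries, by time point (points: libraries, shape: replicate number, bars: means of 3). The first D10 library is the lowest of the 12 in every complex, and complex I reaches its highest mean, 10.57, at D28.

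Few of these genes were called after 1 day of osteogenic medium (D8 against D7). Of the 78 genes, 8 rose (10.3%, against 11.9% of all genes tested) and 1 fell (1.28%, against 9.09%). None passed an absolute log2 difference of 1, against 7.04% of all genes, and the median difference was 0.036 beside 0.026 for all genes. These counts rested on single libraries, since leaving out 1 library gave between 2 and 17 higher and between 0 and 4 lower genes. The median was 0.12 without D8 replicate 3, 0.10 without D7 replicate 2 and -0.0087 without D8 replicate 2.

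After 3 days (D10 against D7), 25 genes fell (32.1%, against 19.4% of all genes) and 2 rose (2.56%, against 21.8%). In 3 genes the difference passed 1, against 18.9% of all genes. The median difference was -0.25, beside 0.053 over all genes. The 3 D10 libraries lay below all D7 libraries in 17 genes (21.8%), a share close to the 22% of all genes. Without the first D10 library 10 genes were lower and 2 higher, and the median was -0.068, beside 0.056 over all genes. Shares of all genes were taken only from the fit of all libraries. Counts that leave out a library, here and for each complex, therefore have no such share beside them and show no excess over all genes. Without D7 replicate 1 the count of lower genes was 14.

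From D10 to D28, 33 genes rose (42.3%, against 22.6% of all genes) and 3 fell (3.85%, against 29.8%). A difference of at least 1 was seen in 6 genes, against 27.5% of all genes. The median was 0.29, while that of all genes was -0.10. All D28 libraries lay above all D10 libraries in 38 genes (48.7%, against 25.6%). Without the first D10 library 25 genes were higher and 6 lower, with a median of 0.16, beside -0.11 for all genes. This comparison shares its D10 libraries with the one before, so the fall and the rise are not independent of each other.

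Over the whole osteogenic phase (D28 against D7), 14 genes rose (17.9%, against 17.6%) and 5 fell (6.41%, against 19.7%). A single gene, Cox6a2, passed 1, against 17.3% of all genes. The D28 libraries lay above all D7 libraries in 25 genes (32.1%, against 22.4%). The median difference was 0.086, beside -0.032 for all genes, and it was 0.032 without D7 replicate 3 and 0.15 without D7 replicate 2. Leaving out 1 library gave 8 (without D7 replicate 1) to 19 (without D10 replicate 1) higher genes. D7 is shared between this comparison and those of D8 and D10.

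**Figure D2:**
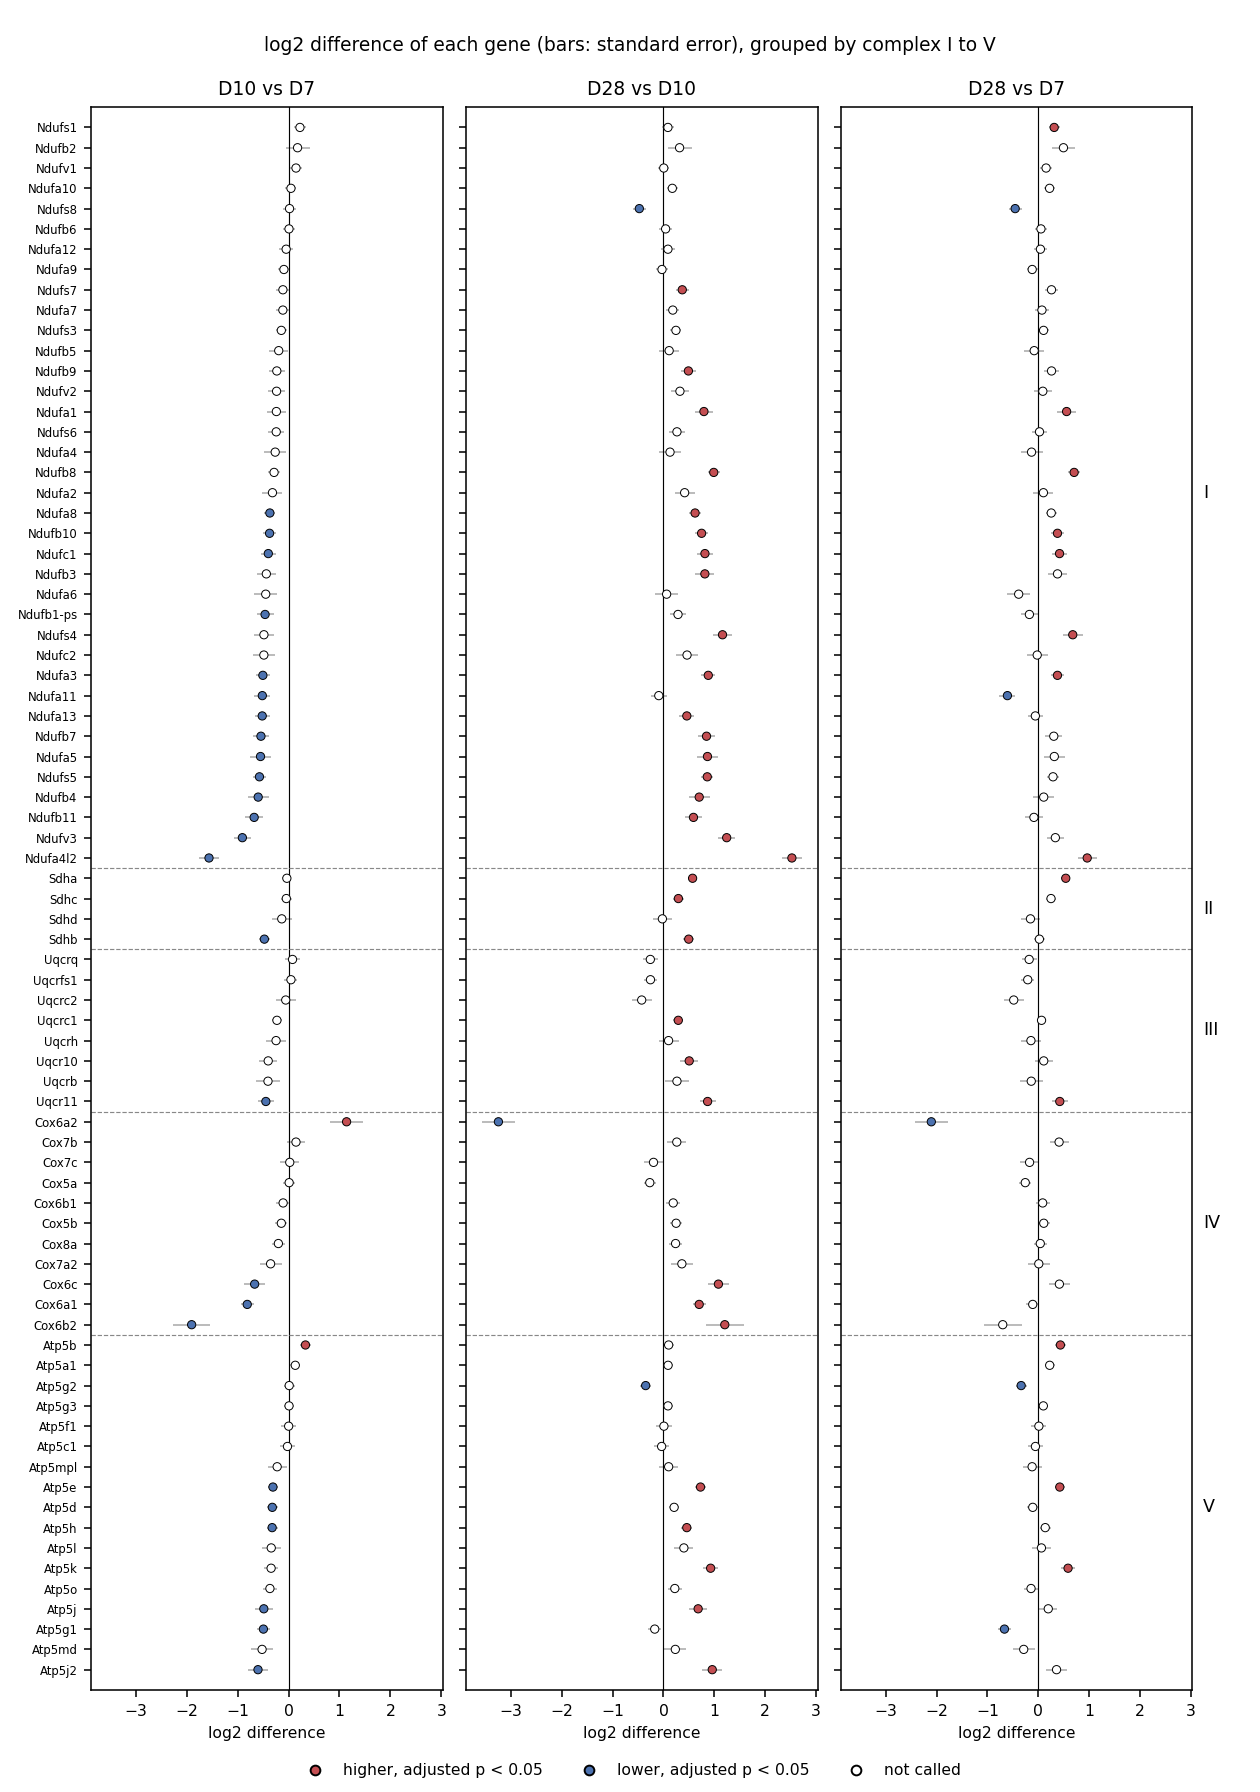
log2 difference (point) and standard error (bar) of 77 of the 78 genes in 3 comparisons, ordered within complexes I to V by the D10 against D7 difference, with called genes filled red (higher) or blue (lower). Of the genes shown, 25 are lower at D10 than at D7 and 2 are higher, and from D10 to D28 32 are higher and 3 lower.

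Complex I, the NADH dehydrogenase, is the first entry of electrons. The 38 genes with its prefix include Ndufa4l2, Ndufa4 and Ndufb1-ps, which is annotated as a long noncoding RNA. Of the 38 genes, 14 fell at D10 (36.8%, against 19.4% of all genes), Ndufb1-ps among them, and none rose. From D10 to D28 19 rose (50%, against 22.6%) and 1 fell, and from D7 to D28 9 rose (23.7%, against 17.6%) and 2 fell. At D8 3 rose (7.89%, against 11.9%). Without the first D10 library, 6 were lower at D10 than at D7, and 15 were higher and 1 lower at D28 than at D10, while 6 were higher and 2 lower at D8 than at D7.

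Ndufa4l2 (chr10:127514967-127517154, GRCm38), a hypoxia-inducible paralog of Ndufa4 that is not a structural subunit of complex I, had the largest differences to and from D10 among the genes with the complex I prefix. It read 13.19, 12.84 and 13.22 at D7, 12.93, 12.56 and 13.24 at D8, 11.07, 11.81 and 11.68 at D10, and 14.15, 14.03 and 13.95 at D28. The D10 libraries lay below and the D28 libraries above all others. It fell by 1.56 ± 0.19 (SE) at D10 (limma adjusted p = 9.31e-06) and rose by 2.52 from D10 to D28 (3.1e-08), so that D28 stood 0.96 above D7 (0.000902). Ndufa4 itself, now assigned to complex IV, differed by -0.26 at D10 and by -0.13 at D28 from D7 and was not called.

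Ndufv3 (chr17:31520115-31531331), an accessory subunit of the NADH-oxidising module, read 11.09, 11.25 and 11.33 at D7 and 9.79, 10.61 and 10.55 at D10. All D10 libraries were lower, the difference was -0.91 ± 0.16 (adjusted p = 0.000341, limma), and without the first D10 library it was -0.64. At D28 it read 11.54, 11.54 and 11.59, a rise of 1.24 from D10 (1.08e-05). Ndufs4 (chr13:114287795-114388258), an accessory subunit whose loss is known from Leigh syndrome models, read 10.59, 10.88 and 10.15 at D7, 9.63, 10.37 and 10.16 at D10 and 11.20, 11.32 and 11.12 at D28. Its D7 and D10 libraries overlapped, and D28 lay above both, by 1.16 over D10 (0.000121) and by 0.68 over D7 (0.0125, and 0.0671 without D7 replicate 3). Ndufb8 (chr19:44548572-44555440), a membrane arm subunit, read 9.43, 9.61 and 9.54 at D7 and 10.13, 10.31 and 10.24 at D28, a rise of 0.70 ± 0.12 (0.000311).

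A few complex I genes went the other way at D28. Ndufs8, a core subunit with iron-sulfur clusters, read 10.02, 10.32 and 10.25 at D7 and 9.85, 9.75 and 9.62 at D28, without overlap. It fell by 0.46 from D7 (limma adjusted p = 0.0123, and 0.0557 without D28 replicate 3) and by 0.47 from D10 (0.00641). Ndufa11, an accessory subunit at the contact of the arms, read 9.41, 9.73 and 9.72 at D7 and 9.31, 8.82 and 8.90 at D28. It fell by 0.61 (0.00598), and by 0.52 already at D10 (0.0145), a call lost without D7 replicate 3 or D10 replicate 1 (0.0522 and 0.0635). At D8 the largest rises among complex I genes were those of Ndufv1, the flavin subunit, by 0.47 (0.00725), and of Ndufa8 by 0.37 (0.027). The Ndufa8 call was lost in 4 of 12 fits that left out a library, with adjusted p of 0.0601 to 0.112 without D7 replicate 1, D7 replicate 2, D8 replicate 1 or D8 replicate 2.

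**Figure D3:**
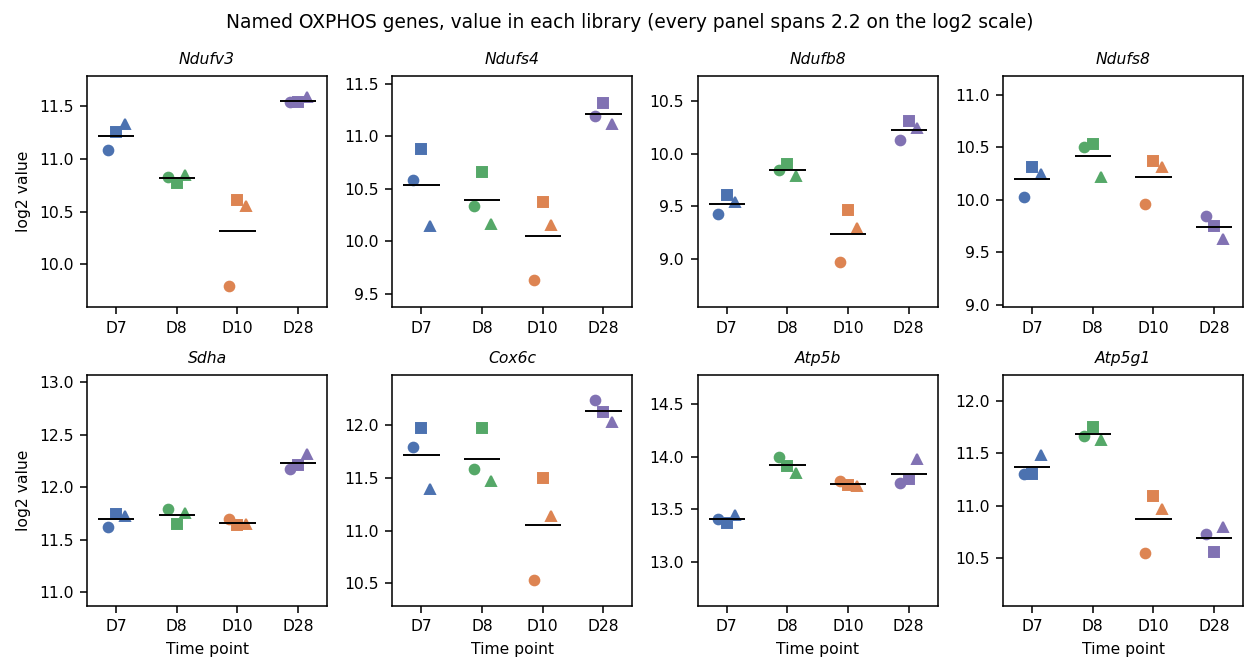
log2 value of 8 named OXPHOS genes in each library by time point (shape: replicate number, bars: means of 3 libraries, every panel spanning the same range). Ndufs4, Ndufb8 and Sdha lie highest at D28, where Ndufs8 and Atp5g1 have their lowest means, and all Atp5b libraries after D7 lie above the D7 libraries.

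Complex II, succinate dehydrogenase, also belongs to the TCA cycle and has no mitochondrially encoded subunit. Of its 4 genes 1 fell at D10 (25%, against 19.4% of all genes) and 3 rose from D10 to D28 (75%, against 22.6%), and 2 of them did so without the first D10 library. The third, Sdhc, was lost in 4 of 12 fits without a library (0.0584 to 0.102). Sdha, the flavoprotein that oxidises succinate, read 11.62, 11.74 and 11.72 at D7, 11.70, 11.64 and 11.65 at D10 and 12.17, 12.21 and 12.32 at D28. D28 lay above all other libraries, by 0.54 ± 0.09 over D7 (limma adjusted p = 0.000178) and by 0.57 over D10 (5.47e-05). Sdhb, the iron-sulfur subunit, read 10.64, 10.61 and 10.58 at D7, 9.89, 10.24 and 10.27 at D10 and 10.61, 10.65 and 10.63 at D28. It fell by 0.48 at D10 (0.00186) and rose by 0.50 after it (0.000923), to a D28 mean 0.02 from that of D7. The membrane anchor Sdhc rose by 0.32 at D8 (0.0396), a call that was lost in 8 of 12 fits without a library (0.0521 to 0.171, lost without any of the D7 libraries 1 and 2, the D8 libraries, D10 replicate 3 or the D28 libraries 2 and 3). Sdhd, the other anchor, was not called in any comparison.

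Complex III, the cytochrome bc1 complex, passes electrons to cytochrome c. Of its 8 genes 1 fell at D10 (12.5%, against 19.4% of all genes), and 3 rose from D10 to D28 (37.5%, against 22.6%), with a median of 0.18. With the first D10 library left out, none was lower at D10, 1 was higher and 2 were lower from D10 to D28, and that median turned to -0.05. Uqcr11 (chr10:80402997-80406830), a small accessory subunit, read 11.02, 10.82 and 10.99 at D7, 10.04, 10.79 and 10.65 at D10 and 11.42, 11.31 and 11.36 at D28. It fell by 0.45 at D10 (limma adjusted p = 0.0308) and rose by 0.87 from D10 to D28 (0.000223). The fall was lost without D7 replicate 1, D7 replicate 3 or D10 replicate 1 (0.0772 to 0.142), with a difference of -0.22 in the last case, and the rise of 0.42 from D7 to D28 (0.0445) was lost in 8 of 12 such fits (0.0536 to 0.125), those without any D7, any D28 or the D8 libraries 1 and 2. Uqcr10, another small subunit, rose by 0.51 from D10 to D28 (0.0228), but not without D10 replicate 1 (0.31, with 0.122) or D28 replicate 1 (0.0838).

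Uqcrc2, a core protein of the matrix side, was the only one of the 78 genes that fell at D8. It read 11.47, 12.38 and 11.39 at D7, where the second library stood far above the others, and 11.08, 11.10 and 10.99 at D8. The difference was -0.69 (limma adjusted p = 0.0193), and it shrank to -0.37 (0.0362) without D7 replicate 2. The call was lost without D8 replicate 1 or D8 replicate 3 (0.0528 and 0.0592), with differences of -0.70 to -0.66. Uqcrq, a ubiquinone-binding subunit, rose by 0.49 at D8 (0.0243), a call lost without D7 replicate 2, D7 replicate 3, D8 replicate 1 or D8 replicate 2 (0.0514 to 0.107).

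Complex IV, cytochrome c oxidase, contains several subunits with a ubiquitous and a tissue-restricted isoform, and its strongest changes lay in such pairs. Of its 11 genes 1 rose and 3 fell at D10 (27.3% falling, against 19.4% of all genes), 3 rose and 1 fell from D10 to D28 (27.3% rising, against 22.6%), and among these 11 only Cox6a2 was called between D7 and D28. With the first D10 library left out, 1 was higher and 2 lower at D10, and 2 were higher and 1 lower from D10 to D28, where the median went from 0.25 to 0.085. In the same fit 3 were higher than D7 at D8 and 2 at D28, where the fit of all libraries called none higher. Cox6a1 (chr5:115345642-115348981), the ubiquitous form of subunit 6A, read 12.29, 12.09 and 12.31 at D7, 11.07, 11.59 and 11.60 at D10 and 12.13, 12.07 and 12.17 at D28. It fell by 0.81 ± 0.13 at D10 (limma adjusted p = 0.000126) and rose by 0.70 after it (0.000289). Without the first D10 library the 2 differences were -0.64 and 0.52, and both calls held.

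Cox6a2 (chr7:128205435-128206387), the heart and muscle form, took the opposite course. It read 6.44, 6.64 and 7.44 at D7, 7.62, 7.53 and 7.50 at D8, 8.13, 7.89 and 7.92 at D10 and 5.55, 4.49 and 4.16 at D28. It rose by 1.14 ± 0.32 at D10 (limma adjusted p = 0.00938, and 0.0513 without D7 replicate 1) and fell by 3.24 from D10 to D28 (5.62e-07). From D7 to D28 it fell by 2.10 (8.74e-05). Skeletal muscle markers had their own course. Of 14 tested, 13 fell at D10 (median -4.01), where 19.4% of all genes did. The summed log2 level of the 7 with a mean of at least 5 was 11.78 to 12.12 at D7, 10.49 to 11.14 at D8, 8.84 to 9.19 at D10 and 9.74 to 10.79 at D28. The D28 sum is mostly Tnni2, a troponin, at 10.68, 9.13 and 9.67, while 12 of the 14 were lower at D28 than at D7, against 19.7% of all genes. From D10 to D28 2 rose and 4 fell (median -0.48), against 22.6% and 29.8% of all genes. Myh3, embryonic myosin, fell by 5.67 at D10 (7.22e-07). The part of muscle cells in the Cox6a2 values was not tested.

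Cox6b2 (chr7:4751792-4753094), known as the testis form of subunit 6B, read 7.25, 6.12 and 7.26 at D7, 4.31, 5.74 and 4.86 at D10 and 6.04, 6.22 and 6.28 at D28. It fell by 1.90 ± 0.37 at D10 (limma adjusted p = 0.000685). It rose by 1.20 from D10 to D28 (0.0124), and by 0.87 (0.0632) without D10 replicate 1. Cox6b1, the ubiquitous form, differed by no more than 0.19 in any comparison and was not called. Cox6c (chr15:35925886-35938246), which has no paired isoform, read 11.79, 11.98 and 11.39 at D7, 10.53, 11.50 and 11.14 at D10 and 12.24, 12.13 and 12.04 at D28. It rose by 1.08 from D10 (0.000379), and D28 lay above every earlier library. Its fall of 0.67 at D10 (0.0164) was lost without D7 replicate 1, D7 replicate 2 or D10 replicate 1 (0.0549 to 0.0865), and the difference was -0.40 without the last of these.

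The restricted isoforms Cox4i2, Cox8b and Cox7a1 lie outside the gene selection or under its limit. Cox4i2, the form of subunit 4 that is induced by low oxygen, read 11.84, 11.48 and 11.70 at D7, 11.06, 10.95 and 10.94 at D8, 9.34, 10.19 and 9.88 at D10 and 12.39, 12.44 and 12.37 at D28. It fell by 1.87 ± 0.16 at D10 (limma adjusted p = 2.88e-07) and rose by 2.59 after it (3.71e-09), the same order of time points as Ndufa4l2, while Cox4i1 was not called in any comparison. Cox8b, the heart, muscle and brown fat form of subunit 8, read 3.69, 3.93 and 3.01 at D7, 3.26, 0 and 0 at D10, and 6.89, 8.01 and 7.39 at D28. D28 lay 3.88 ± 0.73 above D7 (0.000607), and no fold is given against D10, where 2 libraries were at 0 and 3 reads correspond to up to 2.87. Cox7a1, the heart and muscle form of subunit 7A, read 4.69, 4.61 and 4.11 at D7, 1.81, 4.87 and 4.21 at D10 and 5.66, 6.17 and 5.93 at D28. It rose by 2.29 from D10 to D28 (0.00348), but its 1.81 in D10 replicate 1 is the level of 1 read. Without that library the rise was 1.37. The D28 difference of Cox7a1 from D7, 1.45, was not called (0.0602). The ubiquitous partners Cox7a2, Cox8a and Cox7b were not called.

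Fat cell markers moved with the rise of Cox8b. All 7 adipocyte markers rose from D7 to D28 (median 3.81), where 17.6% of all genes did. The summed log2 level of the 6 with a mean of at least 5 was 11.96 to 12.21 at D7, 9.90 to 10.47 at D10 and 15.37 to 15.82 at D28. Adipoq, an adipocyte hormone, read 12.30, 12.45 and 12.74 at D28, and Cfd, adipsin, rose by 9.20 from D7. Of 4 brown adipocyte markers tested, 2 rose, to be read against the same share. Cidea, a lipid droplet protein, rose by 5.08, while Ucp1, the uncoupling protein that defines brown fat, was at 0 in all D28 libraries. The part of these cells in the D28 levels of Cox8b or of any other gene was not tested.

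**Figure D4:**
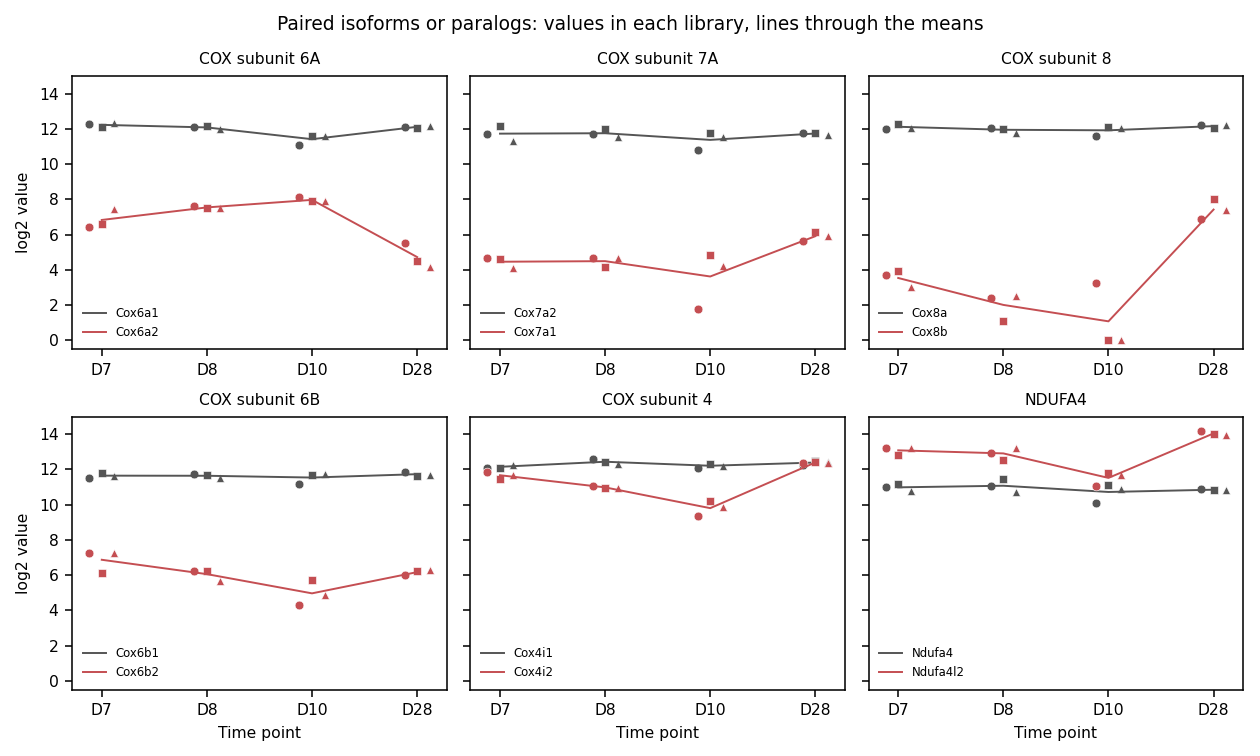
log2 values of 6 pairs of ubiquitous (grey) and restricted (red) isoforms or paralogs in each library, with lines through the means of 3 libraries. Between D10 and D28 each restricted form other than Cox8b, for which no fold is given, has a larger difference than its ubiquitous partner. Cox4i2 and Ndufa4l2 are lowest at D10 and highest at D28, while Cox6a2 fell by 3.24 from D10 to D28.

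Complex V, ATP synthase, combines a catalytic F1 head with a proton-conducting Fo ring. Of its 17 genes 3 rose at D8 (17.6%, against 11.9% of all genes), and 1 rose and 6 fell at D10 (35.3% falling, against 19.4%). From D10 to D28 5 rose (29.4%, against 22.6%) and 1 fell, and from D7 to D28 3 rose (17.6%, the share of all genes) and 2 fell. When the first D10 library was left out, a single gene was lower at D10 than at D7, and 5 were higher at D8. Atp5b (chr10:128083273-128090391), the catalytic beta subunit, was called higher than D7 at every later time point. It read 13.41, 13.37 and 13.44 at D7, 14.00, 13.91 and 13.85 at D8, 13.77, 13.73 and 13.72 at D10 and 13.75, 13.79 and 13.98 at D28. The D7 libraries lay below all others, by 0.51 at D8 (limma adjusted p = 0.00264), 0.33 at D10 (0.0182) and 0.43 at D28 (0.00393). Under median-of-ratios scaling the D10 difference was 0.26 (0.0629).

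Atp5g1, Atp5g2 and Atp5g3 code for the identical c-ring subunit. Atp5g1 (chr11:96068852-96075670) read 11.31, 11.30 and 11.48 at D7, 10.55, 11.09 and 10.97 at D10 and 10.73, 10.56 and 10.80 at D28. It fell by 0.49 at D10 (limma adjusted p = 0.00531) and by 0.67 ± 0.13 at D28 (0.000655), without overlap with D7. Atp5g2 fell by 0.34 from D7 to D28 (0.0193) and by 0.35 from D10 (0.0109). The first of these calls was lost without D7 replicate 1, D28 replicate 1 or D28 replicate 3 (0.0556 to 0.0839), and the second without D10 replicate 2 or D28 replicate 3 (0.0537 and 0.0531). Atp5g3 read 11.34, 11.39 and 11.43 at D7 and 11.80, 11.73 and 11.74 at D8, a rise of 0.37 (0.0142) that was lost without D7 replicate 1 or D8 replicate 1 (0.0558 and 0.0596). At D8 Atp5g1 differed by 0.31 (0.0926) and at D28 Atp5g3 by 0.10 (0.481) from D7, neither called, and differences between these genes were not tested.

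Among the small subunits of the membrane part, Atp5k (chr5:108433244-108434448), the e subunit of the dimer interface, read 10.09, 9.81 and 9.95 at D7, 9.23, 9.91 and 9.69 at D10 and 10.53, 10.57 and 10.51 at D28. It rose by 0.93 from D10 (limma adjusted p = 6.24e-05) and by 0.58 from D7 (0.00485). Atp5j2, the f subunit, read 11.70, 11.88 and 11.40 at D7, 10.55, 11.42 and 11.21 at D10 and 12.10, 11.98 and 11.97 at D28. It rose by 0.96 from D10 (0.000745). Its fall of 0.60 at D10 (0.0231) was lost without D7 replicate 1, D7 replicate 2 or D10 replicate 1 (0.0661 to 0.121), and the difference was -0.35 without the last of these.

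Mitochondrially encoded subunits took another course than the nuclear genes. Of 13, 9 rose and none fell at D10, against 21.8% and 19.4% of all genes, with a median of 0.90. From D10 to D28 7 fell and none rose, against 29.8% and 22.6% of all genes. From D7 to D28, 3 rose and 4 fell, against 17.6% and 19.7% of all genes. None of the 13 was called at D8, where 1 was higher and 1 lower at an unadjusted limma p under 0.05. With the first D10 library left out, the counts were 9 higher at D10 and 10 lower after it. mt-Nd1, a complex I core subunit, read 14.65, 14.70 and 14.28 at D7, 15.69, 16.38 and 15.79 at D10 and 15.69, 15.41 and 15.44 at D28. It rose by 1.41 ± 0.21 at D10 (limma adjusted p = 7.64e-05) and stood 0.97 above D7 at D28 (0.00201). mt-Nd2 rose by 1.13 at D10 and stood 1.05 above D7 at D28 (0.000676). mt-Co1, the catalytic subunit of complex IV, read 17.27, 17.82 and 16.76 at D7 and 18.61 in all 3 D10 libraries, a tie that reflects its equal rank there.

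mt-Co3, mt-Atp6 and mt-Nd4l were read at far lower values. mt-Atp6 read 4.96, 5.27 and 4.49 at D7, 6.47, 6.50 and 6.33 at D10 and 3.26, 3.07 and 4.05 at D28, with a rise of 1.53 from D7 to D10 (limma adjusted p = 0.00276). mt-Co3 fell by 1.87 from D7 to D28 (0.0026). mt-Nd4l read 2.66, 2.95 and 2.79 at D7 and 0, 0.87 and 0.50 at D28, where all values lay under the level of 3 reads, and no fold is given for it. Reads from these genes can be shared with their neighbours or with nuclear copies of mitochondrial DNA, so their levels are uncertain.

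Some regulators of mitochondrial biogenesis were also higher at D10. Of 17, 9 rose at D10, where 21.8% of all genes did, and none fell. From D10 to D28 8 fell, where 29.8% of all genes did, and none rose. These counts were 7 and 7 without the first D10 library, and 7 and 6 under median-of-ratios scaling. The counts of 0 given for these regulators and the mitochondrially encoded subunits at D10 and from D10 to D28, and for complex I genes rising at D10, were also 0 at an unadjusted limma p under 0.05. Ppargc1a, the coactivator PGC-1 alpha, read 4.96, 4.86 and 4.49 at D7, 7.01, 5.95 and 6.55 at D10 and 5.46, 5.20 and 5.65 at D28. It rose by 1.73 ± 0.34 (limma adjusted p = 0.000783), and Ppargc1b by 1.18 (0.0155, and 0.0624 or 0.0651 without D7 replicate 2 or D10 replicate 2). Nrf1 rose by 0.37 (0.012) and Gabpa by 0.52 (0.00185), the factors whose motif letters were searched above, and Tfam, the mitochondrial transcription factor, by 0.32 (0.0324). The Tfam call was lost without D7 replicate 1, D7 replicate 3 or any of the D10 libraries (0.0589 to 0.119). From D7 to D28 Pprc1 fell by 1.08 and Gabpb1 by 0.57, while Tfam rose by 0.32 (0.0374), a call lost in 6 of 12 fits without a library (0.0508 to 0.132).

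Assembly factors, which build the complexes without remaining in them, were called in both directions, in shares to be read against the 21.8% higher and 19.4% lower of all genes at D10, and 22.6% and 29.8% from D10 to D28. Of 15 for complex I, 2 rose and 1 fell at D10, and 4 rose and 3 fell from D10 to D28. Ndufaf4 rose by 1.17 at D10 (limma adjusted p = 0.000197) and Ndufaf6 by 1.02 (0.00333), and Ndufaf3 fell by 0.39 (0.0366, lost in 4 of 12 fits without a library, with 0.0843 to 0.132). Of 19 tested for complex IV, 8 rose and 3 fell at D10, and 3 rose and 10 fell from D10 to D28. Coa7 rose by 1.09 at D10 (0.000238), Pet100 fell by 0.74 (0.0062, and by 0.47 without D10 replicate 1), and Cox18 fell by 1.02 from D7 to D28 (0.000453). Of 4 for complex II 1 fell at D10 (Sdhaf4, by 0.88) and 1 fell from D7 to D28 (Sdhaf3, by 0.98). Of 6 for complex III none was called at D10, and from D7 to D28 Uqcc3 rose by 0.56 and Uqcc1 fell by 0.37, while the rise of Lyrm7 by 0.65 was lost without D7 replicate 2 or D28 replicate 2 (0.0551 and 0.114). None of the 3 for complex V was called at D10 or D28, and these counts of 0 for complexes III and V were also 0 at an unadjusted p under 0.05.

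The genes that feed the respiratory chain were called in both directions, in counts to be read against the shares of all genes. At D10 21.8% of all genes rose and 19.4% fell. These shares were 22.6% and 29.8% from D10 to D28, and 17.6% and 19.7% from D7 to D28. Of 23 genes of pyruvate dehydrogenase and the TCA cycle, 9 rose and 7 fell at D10, 5 rose and 6 fell from D10 to D28, and 6 rose and 1 fell from D7 to D28. Under median-of-ratios scaling the balance turned, to 4 higher and 7 lower at D10 and 9 higher and 3 lower from D10 to D28, with 9 and 0 from D7 to D28. Pcx, pyruvate carboxylase, read 11.18, 10.82 and 11.19 at D7 and 12.36, 12.48 and 12.72 at D28, a rise of 1.45 ± 0.12 (limma adjusted p = 2.95e-07). Idh2, the mitochondrial isocitrate dehydrogenase, fell by 1.01 at D10 (0.000183) and stood 0.52 above D7 at D28 (0.0243), the latter not without D7 replicate 2, D28 replicate 2 or D28 replicate 3 (0.0719 to 0.125, with a difference of 0.31 without the first of these). Pdk4, an inhibitory kinase of pyruvate dehydrogenase, rose by 1.01 at D10 (0.000629). Its fall of 0.52 from D7 to D28 (0.046) was lost in 7 of 12 fits without a library (0.0516 to 0.178). Of 25 genes of glycolysis and the hypoxia response, 2 rose and 11 fell at D10, 14 rose and 3 fell from D10 to D28, and 9 rose and 1 fell from D7 to D28, with medians of -0.34, 0.47 and 0.18. The shares of all genes given above apply to these counts too. Aldoc, an aldolase, fell by 1.46 at D10 (2.88e-06) and rose by 1.52 from D7 to D28 (2.09e-06). The 2 that rose at D10 were Slc2a1, the glucose transporter GLUT1, by 1.80 (0.00011), and Vegfa by 0.83 (0.000607).

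Of 8 tested genes in a list of subunits and carriers that the symbol selection missed, 2 rose and 2 fell at D10, and 1 rose and 3 fell from D10 to D28. The list also holds the inhibitor Atpif1 and 1700066M21Rik, which is not shown here to be a subunit or carrier. Of all genes 21.8% rose and 19.4% fell at D10, and 22.6% rose and 29.8% fell from D10 to D28. Under median-of-ratios scaling the list had 1 higher and 2 lower at D10, and 2 higher and 2 lower from D10 to D28. Cycs, cytochrome c, read 10.19, 10.43 and 9.89 at D7, 10.36, 10.89 and 10.79 at D10 and 9.99, 9.94 and 10.01 at D28. It rose by 0.51 at D10 (limma adjusted p = 0.0169, lost without D7 replicate 3, D10 replicate 2 or D10 replicate 3, with 0.0628 to 0.0881). Atpif1, the inhibitor of ATP synthase, fell by 0.77 (0.00971, and 0.0537 without D10 replicate 1). 1700066M21Rik fell by 1.24 from D10 to D28 (6.69e-05) and by 0.70 from D7 to D28 (0.01). Its rise of 0.54 at D10 (0.0376) was lost in 4 of 12 fits without a library (0.0642 to 0.13).

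**Figure D5:**
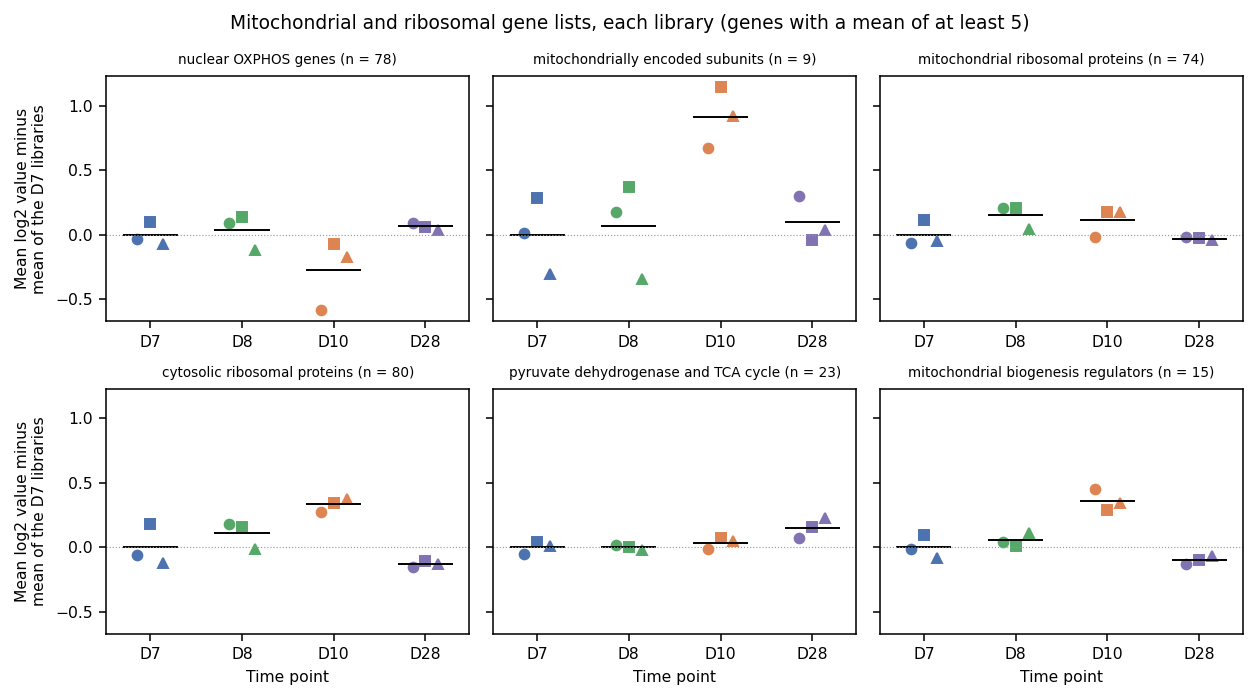
Mean log2 value of 6 gene lists in each library, minus the mean of the D7 libraries (points: libraries, shape: replicate number, bars: means of 3, only genes with a mean of at least 5). The nuclear OXPHOS genes are lowest at D10, where the mitochondrially encoded subunits and the biogenesis regulators are highest.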

How the data were processed

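RNA sequencing values of 12 libraries, 3 at each of 4 time points, were used. Per the submitters' processing notes (tools and build) and the methods of the study (their roles), the authors trimmed reads with Trimmomatic 0.36, aligned them with HISAT2, annotated them with Cufflinks and counted them per gene with HTSeq. The notes name GRCm38 and the methods hg38, but the table lists mouse symbols, and positions and exon lengths given here are from GENCODE M21 (GRCm38). The deposited unit is log2 of the equalized count plus 1, and replicates were not pooled. No column was left unmapped (0). Library totals are not kept in such values. Relative depth was read from the lowest levels, 3 reads corresponded to at most 2.87, and these levels cover counting error only.

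One mean per time point was estimated in limma 3.58.1 (R 4.3.3), with a trend of the variance on the mean and 8 residual degrees of freedom, on the 17674 genes that reached a value of 1 in 3 or more libraries. Comparisons were D8, D10 and D28 against D7, and D28 against D10. Two-sided moderated p-values were adjusted by Benjamini-Hochberg over all tested genes. Tables were handled with Python 3.11.15, pandas 2.3.3 and numpy 2.4.6, and plots were drawn with matplotlib 3.10.9. The fit was tested on simulated data.

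The genes and lists were chosen with earlier results of these data known. Genes were named by rule: per complex and comparison, the 2 called genes with the largest rise and the 2 with the largest fall, every gene past an absolute log2 difference of 1, the isoform pairs, the genes nearest to a mean of 5, and of the other lists the 2 called genes with the largest rise and the 2 with the largest fall for D10 or D28 against D7. Alternatives were median-of-ratios scaling, other filters, a pseudocount of 8, no variance trend, a replicate block, the call rule of the study, other gene rules, and leaving out each library. Reads of short nuclear genes may be shared with processed pseudogenes of near-identical sequence, which the counting could split. A single gene enters the counts and medians but is not reported by name here.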

Additional observations from a re-analysis of the deposited data

How the results depend on the processing

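Each time point has 3 libraries, and library totals are not kept in the values. Leaving out 1 library gave 2 to 17 higher and 0 to 4 lower genes for D8 against D7, 1 to 3 higher and 10 to 34 lower for D10 against D7, 8 to 19 higher and 3 to 7 lower for D28 against D7, and 25 to 38 higher and 2 to 6 lower for D28 against D10. The highest D8 count, 17, came without D10 replicate 1, the lowest, 2, without D8 replicate 1. The lowest count of lower genes at D10, 10, and of higher genes from D10 to D28, 25, both came without D10 replicate 1.

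Under median-of-ratios scaling the counts were 4 higher for D8 against D7 and 1 higher for D10 against D7, and this scaling moved the median of all genes from -0.10 to 0.01 for D28 against D10, where the median of the 78 genes became 0.42. Their median turned from 0.036 to -0.015 for D8 against D7 and went from 0.086 to 0.14 for D28 against D7. Without the variance trend they were 4 higher and 0 lower for D8 against D7, 14 lower for D10 against D7 and 8 higher for D28 against D7. With a log2 difference of at least 1, by adjusted p and by the call rule of the study alike, they were 0 and 0 for D8 against D7, 1 higher and 2 lower for D10 against D7, 0 higher and 1 lower for D28 against D7, and 5 higher and 1 lower for D28 against D10. The cause was not tested for any of these shifts. Apart from the replicate block, the other counts stayed within 1.5 times of the reported ones under the remaining filters, gene rules and the pseudocount of 8.

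The replicate block gave 6 higher and 2 lower genes for D8 against D7, 2 and 29 for D10 against D7, 11 and 6 for D28 against D7, and 35 and 3 for D28 against D10. Libraries that share a replicate number did not deviate together (correlations of -0.06 to 0.07, against -0.07 to 0.09 for other numbers), so the numbers are taken as names. For single genes the alternatives were the other scaling, filters, pseudocount, no variance trend, the replicate block and leaving out each library. Of 147 called results of the genes that the naming rule covers, 107 kept their call under all of these, and none changed sign. The call rule of the study, a log2 difference of at least 1 and the other gene rules were applied to the counts only.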

Other observations

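Of 81 cytosolic ribosomal protein genes tested, 32 rose and 1 fell from D7 to D10 (limma, adjusted p under 0.05), and 1 rose and 52 fell from D10 to D28, with medians of 0.31 and -0.45. Of all genes 21.8% rose and 19.4% fell from D7 to D10, and 22.6% rose and 29.8% fell from D10 to D28. The mean log2 value of the 80 of these genes with a mean of at least 5 was 13.81 ± 0.16 at D7 (SD, n = 3), 13.91 ± 0.10 at D8, 14.14 ± 0.05 at D10 and 13.68 ± 0.02 at D28. Of 74 mitochondrial ribosomal protein genes, 15 rose and 4 fell at D10, and 10 rose and 26 fell from D10 to D28, counts to be read against the same shares. Mrps6, a small subunit protein, read 7.92, 8.16 and 8.18 at D7, 9.49, 9.28 and 9.47 at D10 and 9.83, 9.89 and 9.89 at D28, and rose by 1.33 at D10 (adjusted p = 1.51e-06) and by 1.78 from D7 to D28 (7.64e-08).

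Markers of other cells the pellets could hold were counted in the same fit. The shares of all genes beside them were 21.8% higher and 19.4% lower at D10, and 22.6% and 29.8% from D10 to D28. Of 9 osteoblast markers, 4 rose and 4 fell at D10, and 5 rose and none fell from D10 to D28 (0 also at an unadjusted limma p under 0.05), with a median of 1.00, while 1 was lower under the replicate block and 1 without D10 replicate 1. Of 9 macrophage and osteoclast markers tested, 2 rose and 1 fell at D10, and 4 rose and 2 fell from D10 to D28. Of 5 endothelial markers, 1 rose at D10 and none was called from D10 to D28, where 1 was lower at an unadjusted p under 0.05. Of 5 erythroid markers only 1 passed the filter, and it was not called in any of the 4 comparisons.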
